A study of Mus musculus with 48 samples.

Results

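Axon guidance ligands and receptors were followed as 44 genes in a study of DNA methylation in the mouse amygdala. Any locus of the count table that overlapped the body of 1 of these genes on the GRCm38 assembly, or the 5 kb on either side, was taken as a member. This gave 685 loci of 187695 in all, over 42 of the 44 genes, and none of them lay over 2 of the genes. The ephrin genes Efna3 and Efnb1 had no locus. The libraries came from male C57BL/6 mice (C57BL/6N in the study's methods) of 4 months of age that carried the Tph2 genotypes +/+, +/- or -/-, with 8 mice in each of 6 groups. Tph2 makes serotonin in neurons, its inactivation was constitutive rather than limited to a cell type, and all mice were offspring of Tph2+/- parents. Maternal separation (MS) meant 3 h per day away from the dam from postnatal day 2 to 15, and controls (C) were left with the dam. Whole litters were assigned to MS or control, and the litter of each library is not given in the sources used here. All comparisons below therefore treat mice as independent, though littermates may be among them. Sheared DNA was enriched for methylated fragments with an MBD protein, which binds methylated CpGs, before sequencing. The count of a locus therefore reads the amount of methylated DNA recovered from it and not a percentage of methylation.

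Axon guidance molecules steer growing axons by attraction and repulsion, and in the adult brain many of them act at synapses. Eph receptors are tyrosine kinases that meet their ephrin ligands on neighbouring cells. EphA receptors mainly bind ephrin-A proteins, which are held in the membrane by a lipid anchor, and EphB receptors mainly bind ephrin-B proteins, which span it. Slits are secreted and repel axons through Robo receptors. Netrin-1 attracts axons through Dcc and repels them through Unc5 receptors. Class 3 semaphorins are secreted and signal through neuropilins, which bind them, and A-type plexins, which pass the signal on. In the brain, methylated CpGs are common inside genes and between them, while the CpG-rich starts of active genes are mostly free of methylation.

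The sequences that the results turn on are given from the reference genome (GRCm38.p6, RefSeq), with every CpG in capitals. The stretches from Robo1, Plxna1 and Slit3 are the CpG-richest 200 bases, outside untranslated exons, of the loci with the smallest p for MS in each direction (Robo1 and Plxna1) and of the locus that passed the limits in both genotype comparisons (Slit3). They hold 10, 16 and 13 CpGs. The Unc5c stretch of 120 bases lies in the member locus of highest level and holds 9 CpGs. The 250 bases before the RefSeq starts of Epha8 and Sema3a, with 46 and 2 CpGs, belong to the member start windows richest in CpG and nearest to a locus. The Sema3a start of RefSeq lies inside the gene as GENCODE annotates it. All are written 5′ to 3′, the promoter stretches on the strand of the gene and the others on the plus strand. The mature microRNA miR-218-5p, with its seed (bases 2 to 8) in capitals, is encoded inside the Slit3 stretch.
Robo1 intron, chr16:72872376-72872575: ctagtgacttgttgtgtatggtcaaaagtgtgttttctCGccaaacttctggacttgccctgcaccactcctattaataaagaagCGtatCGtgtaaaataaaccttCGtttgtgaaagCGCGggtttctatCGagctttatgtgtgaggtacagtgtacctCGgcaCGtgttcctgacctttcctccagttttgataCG
Plxna1 coding exon, chr6:89356688-89356887: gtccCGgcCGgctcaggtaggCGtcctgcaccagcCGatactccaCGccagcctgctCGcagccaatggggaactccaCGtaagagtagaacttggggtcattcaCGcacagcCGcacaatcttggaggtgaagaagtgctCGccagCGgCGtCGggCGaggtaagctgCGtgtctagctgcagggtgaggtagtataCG
Slit3 intron, chr11:35616751-35616950: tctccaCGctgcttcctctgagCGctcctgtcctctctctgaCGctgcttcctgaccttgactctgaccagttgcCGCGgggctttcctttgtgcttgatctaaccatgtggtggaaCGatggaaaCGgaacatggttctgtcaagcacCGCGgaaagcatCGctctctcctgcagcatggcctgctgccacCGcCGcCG
Unc5c intron, chr3:141609792-141609911: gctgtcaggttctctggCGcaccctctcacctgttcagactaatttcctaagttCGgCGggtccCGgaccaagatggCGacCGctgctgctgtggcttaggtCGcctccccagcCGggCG
Epha8 before the gene start, chr4:136956817-136957066: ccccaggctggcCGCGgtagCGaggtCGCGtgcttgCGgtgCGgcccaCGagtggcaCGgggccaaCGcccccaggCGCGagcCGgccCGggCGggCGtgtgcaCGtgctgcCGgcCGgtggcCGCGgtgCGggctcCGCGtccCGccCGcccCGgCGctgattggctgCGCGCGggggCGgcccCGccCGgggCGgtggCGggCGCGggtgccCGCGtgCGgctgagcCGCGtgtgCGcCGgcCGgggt
Sema3a before a RefSeq start inside the gene, chr5:13396534-13396783: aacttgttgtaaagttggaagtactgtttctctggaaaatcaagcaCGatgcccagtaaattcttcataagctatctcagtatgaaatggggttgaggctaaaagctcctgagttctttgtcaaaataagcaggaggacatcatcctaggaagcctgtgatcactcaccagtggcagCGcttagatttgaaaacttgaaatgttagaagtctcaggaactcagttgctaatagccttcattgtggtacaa
mmu-miR-218-5p: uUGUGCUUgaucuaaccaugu

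Depth and order of the libraries apply to all results. The total per library ran from 7724481 to 14133801 counts, of which 16163 to 37957 fell in the member loci, and a typical member locus held 25.6 counts per library (median of the means). The study dropped 2 Tph2-/- MS libraries for low counts and for a shifted signal density with extra small peaks. They are not named in the sources used here, and the density was not used to pick them. The 2 of lowest total in that group, replicates 3 and 7, were left out in their place, so 46 libraries were compared. Controls carried the sample numbers 1 to 17 and 42 to 48 and MS libraries 18 to 41, so MS and sample order cannot be told apart. Libraries also differed in CpG slope, the change of log2 count per SD of CpG density over loci, computed from these same counts. It averaged 0.117 ± 0.117 (SD, n = 9) in numbers 18 to 26, against -0.021 ± 0.036 (n = 17) in 1 to 17, -0.024 ± 0.056 (n = 15) in 27 to 41 and -0.049 ± 0.039 (n = 7) in 42 to 48. The highest slopes were those of Tph2-/- MS replicate 3 (0.342), which was left out, and replicate 2 (0.238), which was kept. Loci over Tph2 itself had group means of 39.2 to 41.97 CPM (the count per Mcount of the library) in the Tph2+/+ and Tph2+/- groups and of 34.3 (MS) and 40.7 CPM (C) in the Tph2-/- groups, with the libraries that were left out included, and since the place of the inactivating change is not given in the sources used here, this does not check the genotype. Counts of DNA give no marker transcripts to check the tissue, and in bulk tissue a shift in cell composition and a change of methylation within cells cannot be told apart.

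The members carried many loci, most of them in introns. Of the 685 loci 472 lay in introns, 127 over coding exons, 32 over coding and untranslated exons, 5 over untranslated exons and 4 over non-coding exons. A further 25 lay upstream and 20 downstream of the gene. A typical member gene had 9 loci, against 2 for a protein-coding gene, but member genes were also longer (median 146332 bases against 17425). Per Mb of gene and flanks the medians were 81.6 and 73.4 loci.

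The receptor and ligand families differed widely in how densely they were marked, as the plot of loci per gene shows. Ephb1 had the most loci (89), followed by Slit3 (61), the netrin-1 gene Ntn1 (54), Ephb2 (52) and Robo1 (51). By density the order was another one. The netrin receptor gene Unc5b led with 354 loci per Mb, then Efna2 with 341, Epha8 with 294.1, Epha2 with 288 and Ephb3 with 280. Loci covered 64.5% of Epha8 and its flanks and 58.4% of Epha2. The sparsest genes with a locus were Unc5c with 10.5 loci per Mb, Dcc with 12.6, Epha5 with 13.4, Nrp2 with 15.9 and Epha6 with 17.7. Netrin and EphA receptors thus held both dense and sparse genes, while all 5 EphB receptors were denser than the median protein-coding gene. Density went with the GC content of the gene over the 44 genes (Pearson's r = 0.65, Spearman's rho = 0.57, given as a description across genes). Efna3 stood against this pattern, since it had 39.4 CpGs per kb, the most of all 44 genes, and no locus.

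**Figure D1:**
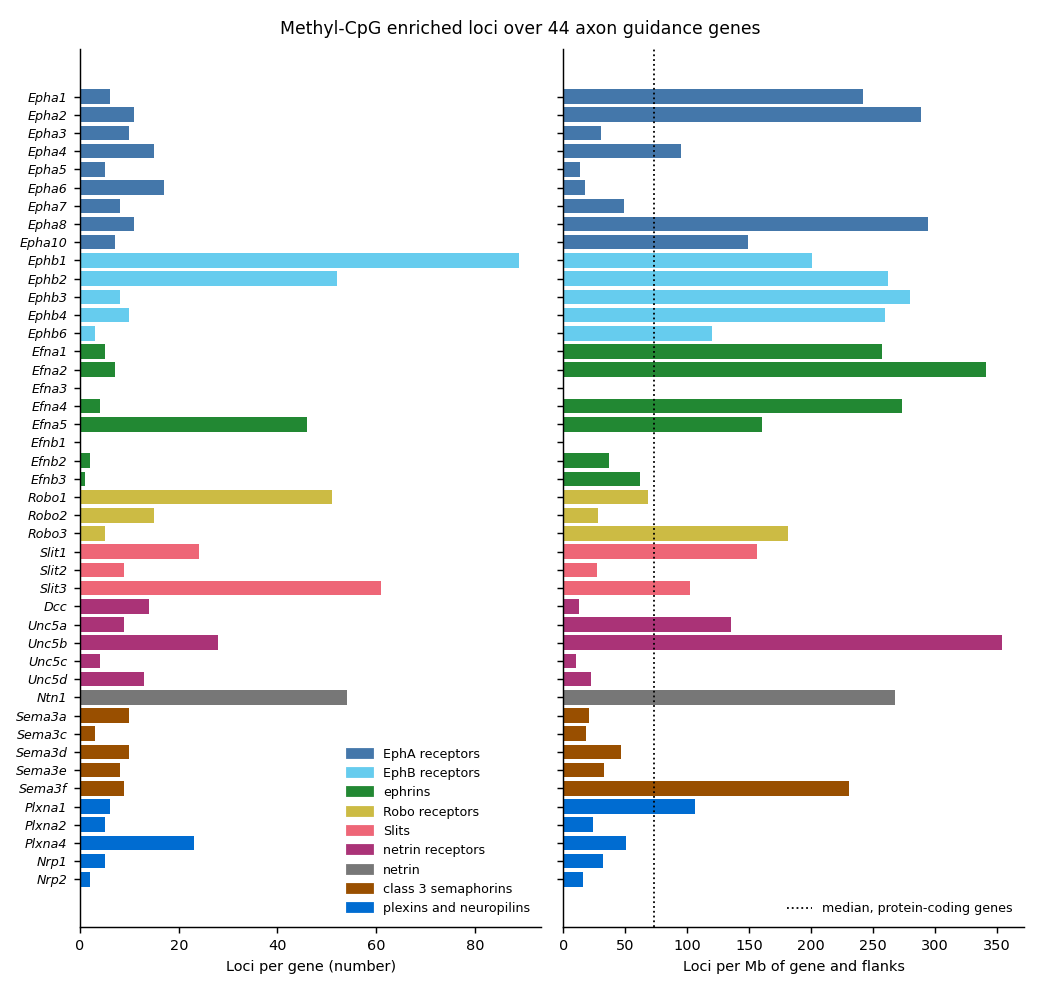
Number of loci per gene (left) and loci per Mb of gene and 5 kb flanks (right) for the 44 genes, coloured by family; the dotted line is the median of protein-coding genes, 73.4 per Mb. Ephb1 has the most loci (89) and Unc5b the highest density (354 per Mb), while Efna3 and Efnb1 have none.

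No member gene had a locus over its start. The window from 250 bases before to 50 bases after the annotated start was free of loci in all 44 genes, while 1695 of 21938 protein-coding genes (7.73%) had a locus there. RefSeq start windows of the same length gave the same picture, with 0 of 41 windows for 36 member genes against 10.5% of all 32851 windows. The member windows were CpG-rich, with a median of 21 CpGs in 300 bases against 7 over all windows. Of the 41 member windows 29 held 15 or more CpGs, a limit chosen after the values were seen. Over all windows with that many CpGs 2.72% had a locus, against 14.5% of the windows with fewer. The Epha8 stretch printed above is part of the CpG-richest member window, with 56 CpGs in 300 bases, and its nearest locus was 850 bases away. The RefSeq start of Sema3a inside the gene had the CpG-poorest window, with 2 CpGs, and the nearest locus, followed by Epha5 with a locus at 439 bases.

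Loci became common again a short way from the start. In bins of 500 bases, counted from the GENCODE start of the gene, no member gene had a locus within 500 bases on either side, and 1 of 44 had one between 500 and 999 bases downstream. In the bins from 2500 and from 2000 bases upstream 11 of 44 genes (25%) each had a locus, against 12.8 and 11.8% of the other protein-coding genes. From 4000 to 4499 bases downstream it was 13 of 44 (29.5%) against 14.7%. The member genes thus ran from below to above the other genes over a distance of 2 kb, without a test of this difference.

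**Figure D2:**
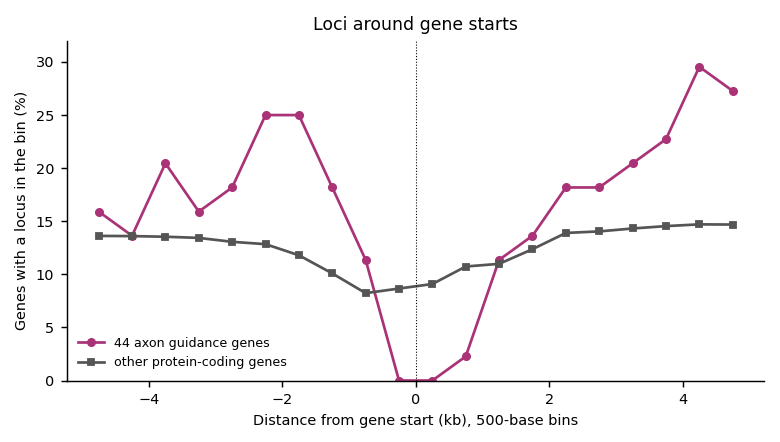
Share of genes (%) with a locus in each 500-base bin from 5 kb before to 5 kb after the gene start, for the 44 members and the 21894 other protein-coding genes. The member line drops to 0 in the bins on both sides of the start and reaches 29.5% at 4 kb downstream; the line of the other genes stays between 8.23 and 14.7%.

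Levels were compared per length, as TMM-normalised CPM per kb of locus. The median was 2.70 CPM per kb over the member loci and 2.76 over all loci, and 22 member loci lay above 5.38, the 95th percentile of all loci. Of these 22 loci 18 lay in introns and 16 consisted to 75% or more of sequence that the reference marks as repeats. The highest were an Unc5c intron (12.5 ± 5.28 CPM per kb, SD over 46 libraries), a Sema3c intron (11.8 ± 5.12), an Epha5 intron (11.5 ± 4.73), an Unc5d intron (10.8 ± 3.94) and the other Unc5c intron (10.3 ± 4.35). Over single libraries the first of them ran from 6.10 through a median of 11.4 to 32.6 CPM per kb. The differences among these 5 were smaller than their spread over libraries. Unc5c, Unc5d and Epha5 encode receptors that repel axons and Sema3c a secreted semaphorin, and all 4 genes had few loci for their length.

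The highest loci shared their sequence. Of the 22 loci 17, in 10 genes, held 31-base stretches that occurred in another of the 22, on either strand. The Unc5c stretch printed above was chosen within its locus as the window most alike over the 5 highest of these loci. Its matches at those 5 are therefore part of the choice. It was found without a mismatch at 7 of the 17 loci, those 5 included. In all, 13 of the 17 matched it at 117 or more of 120 bases when laid beside it without gaps. At least 1 of 4 stretches of 31 bases from it occurred in 1984 loci of the whole table (1.06%). The sources used here do not say how reads that fit several places were counted, so the values of these loci are uncertain: reads of 1 copy may have been counted at another. In Unc5c these loci held 89.99% of the summed level of the gene, in Epha5 71.5%, in Unc5d 69.1%, in Sema3c 56.0% and in Epha6 48.5%. In Robo1, by contrast, they held 14.2%. A locus was counted here if it shared any 31-base stretch, and the shared part ran from 0.28 to 71.3% of its stretches. In the 3 Epha6 loci it was 0.28, 12.4 and 68.9%. The Epha6 share is therefore mostly not that of close copies.

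Maternal separation was compared with control rearing over the 3 genotypes first. Single loci differed in both directions, the clearest being a Robo1 intron that was lower in MS and exons or introns of Plxna1 and Sema3f that were higher. The study's limits (log2 fold change over 0.2 in size, with p below 0.01 before adjustment) were passed by 31 of 685 member loci (4.53%), against 3.63% of all loci. Of the 31 loci 19 were higher in MS and 12 lower, where 2.28% of all loci were higher and 1.35% lower. None of them had an adjusted p under 0.05 in edgeR, which 0.0128% of all loci reached, and 96 member loci (14.02%) had an unadjusted p under 0.05, against 12.2% of all loci. DESeq2 gave 2 member loci an adjusted p under 0.05, an Unc5b coding exon (adjusted p = 0.0490) and an Unc5d intron (adjusted p = 0.0388), which is 1 of the loci that share sequence. Its filter on low counts left 623 of the 685 loci without an adjusted p, among them the 3 loci described next. With total counts in place of TMM the split of the calls was 8 higher and 22 lower.

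Robo1, a receptor for Slit proteins, held the member locus with the smallest p. It lies in an intron at chr16:72872167-72872911, 564233 bases from the gene start. In Tph2+/+ mice it had 1.88 to 2.66 CPM in C (median 2.30) and 0.616 to 2.26 CPM in MS (median 1.34). In Tph2+/- mice the range was 1.24 to 2.89 CPM in C (median 2.22) and 1.19 to 3.09 CPM in MS (median 1.46). In Tph2-/- mice it was 1.35 to 2.87 CPM in C (median 2.49) and 0.768 to 2.29 CPM in MS (median 1.42). All 8 Tph2+/+ MS libraries lay under the median of their controls and 7 of 8 under the lowest control, whereas the Tph2+/- and Tph2-/- groups overlapped more. The log2 difference was -0.59 ± 0.14 (SE, unadjusted p = 4.24e-05, adjusted p = 0.0812 by edgeR). It was -0.40 without sample numbers 18 to 26 and -0.54 with the CpG slope as a term, past both limits each time.

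Robo1 had 4 further loci past the limits, which did not move one way. Introns at 374464 and 673493 bases from the start were lower in MS (log2 difference -0.54 and -0.46), and a coding exon at 662421 bases and an intron at 688718 bases were higher (0.30 and 0.25). The 51 Robo1 loci together were 20 higher and 31 lower by fitted difference, and the summed counts of the gene differed by 0.01 ± 0.03 (SE). In Robo2 an intron locus of 7.52 CpGs per kb was lower (-0.67) and one of the shared-sequence loci was higher (0.39). The Robo genes thus held single loci of opposite sign, and none of their sums had an unadjusted p under 0.05.

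Plxna1, a plexin that passes on semaphorin signals, had the locus with the smallest p among those that were higher. This locus at chr6:89356332-89357891 covers coding and untranslated exon sequence 5509 bases from the start. Its lowest, median and highest values in Tph2+/+ mice were 3.12, 4.21 and 6.27 CPM in C and 4.01, 5.65 and 7.24 CPM in MS. In Tph2+/- mice they were 3.78, 4.65 and 6.59 CPM in C and 4.59, 5.89 and 7.77 CPM in MS. The Tph2-/- values were 3.08, 5.05 and 6.56 CPM in C and 4.25, 6.75 and 11.2 CPM in MS. In each genotype 1 MS library lay under the control median and the others above it, with ranges that overlapped. The log2 difference was 0.38 ± 0.09 (SE, unadjusted p = 8.29e-05, adjusted p = 0.0910 by edgeR), and 0.19 (unadjusted p = 0.0606) without sample numbers 18 to 26.

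The third locus, in a Sema3f intron at chr9:107700455-107701236, was CpG-poor with 10.2 CpGs per kb. Sema3f is a secreted repellent that acts through Nrp2. In Tph2+/+ mice it ran from 1.32 to 2.89 CPM in C (median 1.77) and from 1.86 to 3.90 CPM in MS (median 2.37). In Tph2+/- mice the values were 0.717 to 2.49 CPM in C (median 1.42) and 1.74 to 3.15 CPM in MS (median 2.25), and in Tph2-/- mice 1.29 to 2.78 CPM (median 2.14) and 1.36 to 3.88 CPM (median 2.38). All 8 MS libraries of both the Tph2+/+ and Tph2+/- mice lay above the control median, as did 4 of 6 of the Tph2-/- mice. The log2 difference was 0.48 ± 0.13 (SE, unadjusted p = 0.000441, adjusted p = 0.134 by edgeR), and 0.33 (unadjusted p = 0.0346) without sample numbers 18 to 26.

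**Figure D3:**
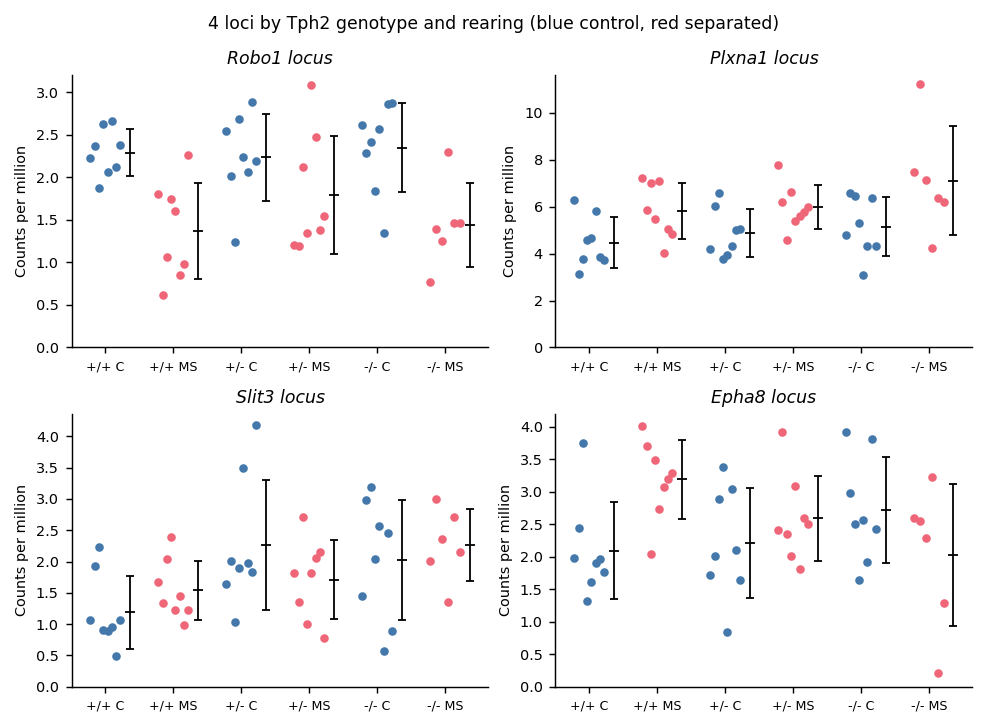
CPM in each library at 4 loci, by Tph2 genotype and rearing (blue C, red MS); the bar beside each group is the mean ± SD of 8 libraries (6 in -/- MS). The Robo1 locus is lower and the Plxna1 locus higher in MS with overlapping ranges, the Slit3 locus is lowest in the +/+ groups, and the Epha8 locus has medians of 1.93 CPM (C) and 3.24 CPM (MS) in +/+ mice and of 2.54 and 2.42 CPM in -/- mice.

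The other 28 loci past the limits fell in 18 genes together with these 3. Efna5, an ephrin-A ligand, had 4 such loci of 46, all in introns and all lower in MS, with log2 differences from -0.35 to -0.58. Netrin receptors, with 68 loci, had 6 that were higher and 1 that was lower. The 6 lay in Unc5b (2 coding exons, 0.29 and 0.21), Unc5c (0.40), Unc5d (0.45 and 0.35) and Dcc (0.40), and the 1 in Dcc (-0.45). The Unc5c locus and both Unc5d loci are among those that share sequence, so they may not be separate observations. EphB receptors, with 162 loci, had 5 that were higher and none that was lower. The 5 lay in Ephb2 (0.23 and 0.49), Ephb3 (0.41) and Ephb4 (0.31 and 0.30). Over all 162 EphB loci the median log2 difference was -0.02. Over all loci 3.63% passed the limits, 2.28% higher and 1.35% lower, and no family was tested against this. Of the 31 loci 21 lay in introns, 9 over exons and 1 downstream of Epha7, and 10 of the 12 that were lower were intronic. The loci that were higher had a median of 25.6 CpGs per kb and those that were lower 14.8.

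Summed over all loci of a gene, no member gene passed the limits for MS, against 3.29% of all 37004 genes with a locus. The sums leaned upward in MS. Of 42 genes 31 were higher and 11 lower, with a median log2 difference of 0.08 against 0.02 over all genes. An unadjusted p under 0.05 was found for 19 (45.2%), against 17.9% of all genes. Member genes had a median of 9 loci, against 2 for a protein-coding gene, so their sums hold more counts. Shares of gene sums past a limit are therefore not like for like between members and all genes, and the shares of single loci are given above. None had an adjusted p under 0.05 in edgeR, and DESeq2 gave 1, Ephb1 (adjusted p = 0.0253). With the CpG slope of the library as a term 22 of 42 genes were higher and 3 had an unadjusted p under 0.05. Without sample numbers 18 to 26 14 were higher and 2 had such a p, and with total counts 25 were higher.

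Ephb1 had the smallest p of the gene sums. Its receptor binds ephrin-B ligands and acts at excitatory synapses. In Tph2+/+ mice its 89 loci summed to 243 to 254 CPM in C (median 248) and 214 to 245 CPM in MS (median 240), and 7 of 8 MS libraries lay under the lowest control. In Tph2+/- mice the values were 239.3 to 264 CPM in C (median 250) and 232 to 255 CPM in MS (median 245). In Tph2-/- mice they were 243 to 257 CPM in C (median 250) and 201 to 254 CPM in MS (median 237), with 4 of 6 MS libraries under the lowest control. The log2 difference was -0.08 ± 0.02 (SE, unadjusted p = 0.000168, adjusted p = 0.0776 by edgeR), with 72 of 89 loci lower by fitted difference and none past the limits. It was -0.05 both with the slope term (unadjusted p = 0.00862) and without sample numbers 18 to 26 (unadjusted p = 0.00921).

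Efna5 and Ephb2 followed. The Efna5 sum had medians of 133.4 CPM in C and 122 in MS of Tph2+/+ mice, 134 and 128 in Tph2+/- mice and 136 and 128 in Tph2-/- mice, and its full range was 94.0 to 149 CPM. Its log2 difference was -0.10 ± 0.03 (SE, unadjusted p = 0.00223, adjusted p = 0.124 by edgeR), with 38 of 46 loci lower. Ephb2, another receptor of ephrin-B, went the other way, with medians of 185 and 196 CPM in C and MS of Tph2+/+ mice, 184 and 194 in Tph2+/- mice and 187.7 and 193.5 in Tph2-/- mice. Its log2 difference was 0.08 ± 0.03 (SE, unadjusted p = 0.00268, adjusted p = 0.127 by edgeR), with 34 of 52 loci higher. With the slope term the differences were -0.04 for Efna5 (unadjusted p = 0.0653) and 0.04 for Ephb2 (unadjusted p = 0.0979). Without sample numbers 18 to 26 they were -0.03 for Efna5 (unadjusted p = 0.336) and 0.02 for Ephb2 (unadjusted p = 0.415).

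By family, the receptors of netrin had 1 sign in the comparison of 46 libraries. All 5 (Dcc 0.13, Unc5a 0.15, Unc5b 0.12, Unc5c 0.34 and Unc5d 0.22 in log2 difference) were higher in MS with an unadjusted p under 0.05, while their ligand gene Ntn1 differed by 0.01 ± 0.02 (SE). With the slope term the same 5 lay between -0.01 and 0.05. Without sample numbers 18 to 26 Unc5a (-0.02), Unc5c (-0.08) and Unc5d (-0.06) had a negative sign and Dcc (0.04) and Unc5b (0.02) a positive one. Loci that share sequence held 89.99% of the Unc5c sum, 69.1% of the Unc5d sum and 31.6% of the Dcc sum. These sums may therefore hold reads of the same copies. Among EphA receptors 6 of 9 were higher and 5 had such a p, of which Epha7 was lower (-0.20 ± 0.07, SE) with all 8 of its loci lower. Among EphB receptors 4 of 5 were higher and 4 had such a p, of which Ephb1 was lower. Among ephrins 5 of 6 were higher and 2 had such a p, Efna4 (0.12) and Efna5. Among class 3 semaphorins 4 of 5 were higher and 3 had such a p, with Sema3c (0.24) and Sema3f (0.13) higher and Sema3a, a repellent that acts through Nrp1, lower (-0.11). Sema3a stayed lower with the slope term (-0.12, unadjusted p = 0.0108) and without sample numbers 18 to 26 (-0.11, unadjusted p = 0.0490). The 3 Robo genes, the 3 Slit genes and the 5 plexin and neuropilin genes had none with such a p.

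**Figure D4:**
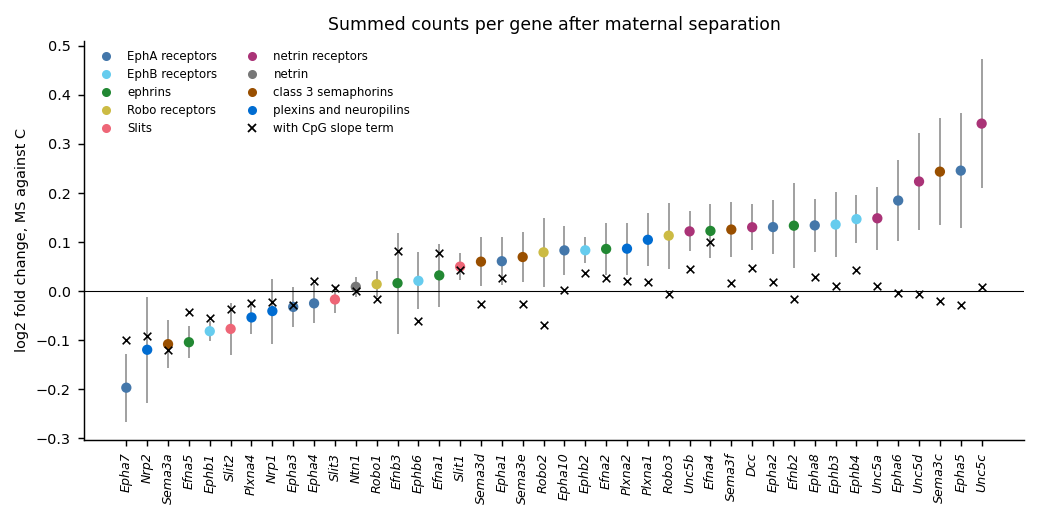
Log2 fold change of summed counts, MS against C, for the 42 genes with a locus, ordered by value and coloured by family; error bars are ± SE in the comparison of 46 libraries, and crosses give the value with the CpG slope as a term. Circles run from -0.20 (Epha7) to 0.34 (Unc5c), and the crosses of the highest genes lie near 0.

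The differences in MS went with CpG density. Across the 42 genes the log2 difference of the sum and the CpG density of the loci had a Pearson's r of 0.68 and a Spearman's rho of 0.71 in the comparison of 46 libraries, 0.12 and 0.16 with the slope term, and -0.12 and -0.14 without sample numbers 18 to 26. These are descriptions across genes that share their libraries. The slope was computed from these same counts, and as a term it takes out differences that follow CpG density, whatever their origin. The fall with the slope term therefore follows from how the term was made. In the CpG-richest 228 of the member loci (median 23.4 CpGs per kb) the median log2 difference was 0.06 with 13 loci past the limits higher and 2 lower. In the CpG-poorest 228 (median 11.4) it was -0.05 with 4 higher and 6 lower. With the slope term the medians were 0.00 and -0.03, and 1 locus was higher and 1 lower in the CpG-richest group.

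The 22 highest loci had 1 sign, with or without shared sequence. All 22 had a positive fitted difference in MS, with a median of 0.31 on the log2 scale, and 5 passed the limits. For the 17 that share sequence the median was 0.33, and 4 passed the limits. With the slope term, which takes out differences that follow CpG density, the median was -0.02. Without sample numbers 18 to 26 it was -0.09. Their spread over libraries was also wide, and over the 22 highest loci the SD was 37.8% of the mean (median), against 29.6% for the other member loci. Of the 31 member loci past the limits 10 stayed past them with the slope term, 3 without sample numbers 18 to 26 and 11 with a term for the late-numbered controls. The Robo1 locus at chr16:72872167-72872911 was the 1 locus that stayed past them in all 3. Sample numbers 18 to 26 are all MS libraries, so leaving them out gives fewer MS libraries and the same controls. Of the 31 loci 28 kept their sign without these libraries.

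**Figure D5:**
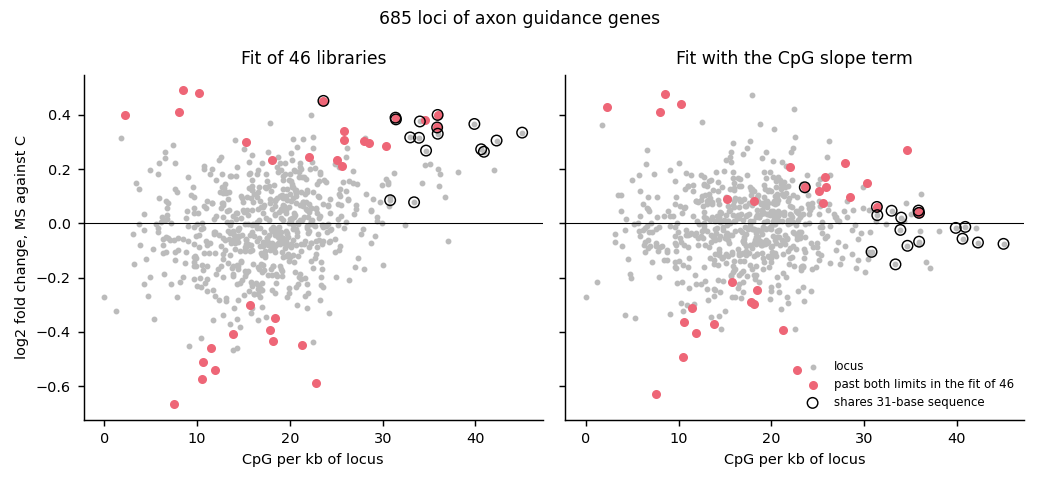
Log2 fold change, MS against C, of each of the 685 loci against its CpGs per kb, in the comparison of 46 libraries (left) and with the CpG slope of the library as a term (right). Red points are the 31 loci past both limits at left, open circles the 17 loci that share 31-base sequence; the circles lie above 0 at left (median 0.33) and around 0 at right (median -0.02).

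A comparison within the controls gives the size of differences that carry no MS. Controls numbered 42 to 48 were compared with those numbered 1 to 17, with genotype in the model. Here 19 member loci (2.77%) passed the limits, against 3.5% of all loci, 3 higher and 16 lower in the late libraries. None had an adjusted p under 0.05 in edgeR (64 of 685 had an unadjusted p under 0.05, against 19306 of all 187695). DESeq2 gave 1, a Slit3 exon (adjusted p = 0.0448), with no adjusted p for 597 loci. The smallest p was that of another Robo1 intron, 420781 bases from the start (log2 difference 0.63). In the 228 CpG-richest loci 10 were lower and 1 was higher.

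Tph2-/- mice were then compared with Tph2+/+ mice over both rearing conditions. Few loci differed: a Slit3 intron was higher and a pair of Sema3d introns lower in Tph2-/- mice. In all 7 member loci (1.02%) passed the limits, against 0.748% of all loci, with 4 higher and 3 lower. No adjusted p was under 0.05 by edgeR or DESeq2, and 31 of 685 loci had an unadjusted p under 0.05, against 7666 of all 187695. The remaining 4 were an Epha3 coding exon (0.41), a Sema3a intron (-0.45), the single Efnb3 locus (0.36) and an Ntn1 intron (0.30). At the Epha3 exon the control means were alike, 2.07 CPM in Tph2-/- and 2.05 in Tph2+/+ mice. The MS means were 3.58 and 2.02 CPM, and the same exon is described below for GE2. All 7 stayed past the limits with the slope term, and none did without sample numbers 18 to 26, a comparison with fewer libraries. The direction of all 7 was the same there, and the log2 differences were 0.62 (Slit3), -0.65 and -0.37 (Sema3d), 0.29 (Epha3), -0.38 (Sema3a), 0.33 (Efnb3) and 0.32 (Ntn1).

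The Slit3 locus at chr11:35616532-35617332 lies in an intron 495708 bases from the start and covers Mir218-2, the hairpin of miR-218. Slit3 is a secreted Slit, and miR-218 is known to repress Robo transcripts. In C mice the lowest, median and highest values were 0.490, 1.01 and 2.23 CPM in Tph2+/+, 1.03, 1.93 and 4.18 CPM in Tph2+/- and 0.578, 2.25 and 3.19 CPM in Tph2-/- mice. In MS mice they were 0.984, 1.39 and 2.40 CPM in Tph2+/+, 0.772, 1.82 and 2.70 CPM in Tph2+/- and 1.36, 2.26 and 3.01 CPM in Tph2-/- mice. The Tph2+/+ medians were the lowest in both rearing conditions, and the ranges overlapped. The log2 difference was 0.65 ± 0.20 (SE, unadjusted p = 0.00155) in Tph2-/- and 0.51 ± 0.19 (SE, unadjusted p = 0.00965) in Tph2+/- against Tph2+/+ mice, with adjusted p of 0.9999 and 1.0 by edgeR. Both comparisons share the Tph2+/+ libraries.

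The other copy of the microRNA, Mir218-1, also lies under a member locus, in a Slit2 intron, which was looked up for this reason. This locus had 3.05 to 4.35 CPM in Tph2+/+ C mice (median 3.43), 2.51 to 4.99 CPM in Tph2+/- C mice (median 3.01) and 2.38 to 3.62 CPM in Tph2-/- C mice (median 3.18). Its log2 difference was -0.22 ± 0.13 (SE, unadjusted p = 0.0860) in Tph2-/- and 0.03 ± 0.12 (SE, unadjusted p = 0.814) in Tph2+/- against Tph2+/+ mice. The Slit2 locus thus did not pass the limits. No test was made of a difference between the loci.

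The Sema3d loci lie 27510 and 38238 bases from the start of this secreted semaphorin gene, in introns and partly in repeats (40.5 and 49.2%). The farther one, at chr5:12421320-12421927, had medians of 1.70 CPM in C and 1.57 in MS of Tph2+/+ mice and 1.13 and 0.848 in Tph2-/- mice. Its ranges overlapped in each condition, and the log2 difference was -0.67 ± 0.21 (SE, unadjusted p = 0.00212). The nearer one, at chr5:12410608-12411183, had medians of 1.75 and 1.78 CPM in Tph2+/+ and 1.04 and 1.42 in Tph2-/- mice and a log2 difference of -0.52 ± 0.18 (SE, unadjusted p = 0.00483). Both adjusted p were 0.9999 by edgeR.

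On gene sums Efnb3 passed the limits in Tph2-/- mice, 1 of 42 genes against 0.603% of all genes. Ephrin-B3 is a ligand of EphB receptors. Its sum is that of 1 locus, upstream at a distance of -2316 bases from the start and inside the neighbouring gene Wrap53, so either gene could be named. In C mice it had 1.89 to 4.29 CPM in Tph2+/+ (median 2.67), 2.52 to 5.97 CPM in Tph2+/- (median 3.68) and 2.58 to 4.40 CPM in Tph2-/- mice (median 3.47). In MS mice the medians were 2.85, 3.24 and 3.80 CPM in this order. The log2 difference was 0.36 ± 0.13 (SE, unadjusted p = 0.00742, adjusted p = 0.967 by edgeR). Plxna1 (0.16 ± 0.07, SE) and Ntn1 (0.06 ± 0.03, SE) had the next smallest unadjusted p, 0.0185 and 0.0305, and 34 of 42 genes were higher with a median of 0.04, against 0.02 over all genes.

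In Tph2+/- mice 4 member loci (0.584%) passed the limits against Tph2+/+ mice, close to the 0.546% of all loci, with 3 higher and 1 lower (2 and 0 with total counts). No adjusted p was under 0.05 by edgeR or DESeq2, and 20 of 685 loci had an unadjusted p under 0.05, against 6515 of all 187695. Beside the Slit3 locus these were an Ephb2 intron at chr4:136817674-136818907 (0.33 ± 0.12, SE, unadjusted p = 0.00929), an Efna2 coding exon at chr10:80186335-80187330 (-0.44 ± 0.17, SE, unadjusted p = 0.00939) and a Robo1 intron (0.47). The Ephb2 locus had a median of 2.54 CPM in C and 3.21 in MS of Tph2+/+ mice and 3.48 and 3.41 in Tph2+/- mice. The Efna2 locus had 2.62 and 2.06 CPM in Tph2+/+ and 1.83 and 2.51 in Tph2+/- mice, so its C and MS medians did not lie in the same order.

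No gene sum passed the limits in Tph2+/- mice, against 0.389% of all genes. An unadjusted p under 0.05 was found for 2 of 42, against 1112 of all 37004. Efna2, a ligand of EphA receptors, differed by -0.18 ± 0.06 (SE, unadjusted p = 0.00591), with medians of 22.2 and 22.4 CPM in C and MS of Tph2+/+ mice and 20.0 and 21.7 in Tph2+/- mice. Efnb3 differed by 0.33 ± 0.12 (SE, unadjusted p = 0.0101) and Ephb1 by 0.04 ± 0.02 (SE, unadjusted p = 0.0694). The 3 adjusted p were 0.9999 by edgeR. DESeq2 took Efnb3 past the limits (unadjusted p = 0.00733).

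The study's interactions ask whether the MS effect differs between genotypes, GE1 for Tph2+/- and GE2 for Tph2-/- mice, each against Tph2+/+ mice. For GE1 7 member loci (1.02%) passed the limits, against 0.626% of all loci, with 5 positive and 2 negative. With total counts the split was 11 and 0, where the median over all loci moved from -0.01 to 0.15 on the log2 scale. For GE2 3 member loci (0.438%) passed, against 0.558% of all loci. No adjusted p was under 0.05 by edgeR or DESeq2 in either. In each 25 of 685 loci had an unadjusted p under 0.05, against 6968 (GE1) and 6315 (GE2) of all 187695. The standard error of a typical member locus was 0.31 for GE1 and 0.32 for GE2 on the log2 scale. The smallest interaction among the loci that passed was 0.63 in size for GE1 and 0.81 for GE2, so smaller interactions could be missed.

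For GE1 the smallest p was at a Nrp1 intron, chr8:128448874-128449630, in the gene of the neuropilin that binds Sema3a. In Tph2+/+ mice it had 1.32 to 2.09 CPM in C (median 1.71) and 1.11 to 3.71 CPM in MS (median 2.31). In Tph2+/- mice it had 1.12 to 3.60 CPM in C (median 2.15) and 0.705 to 2.31 CPM in MS (median 1.67). The order of C and MS turned between the genotypes, with an interaction of -1.01 ± 0.32 (SE, unadjusted p = 0.0023). The locus is CpG-poor (7.93 CpGs per kb) and 65.1% of it is marked as repeats. In Sema3e, which encodes another semaphorin, an intron at chr5:14090646-14091557 showed the opposite order, with medians of 2.40 and 1.47 CPM in C and MS of Tph2+/+ mice and 2.17 and 2.44 in Tph2+/- mice (interaction 0.90 ± 0.33, SE, unadjusted p = 0.00652).

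A coding exon of Dcc, at chr18:71954545-71955297, had medians of 2.56 and 1.15 CPM in C and MS of Tph2+/+ mice and 1.55 and 2.04 in Tph2+/- mice. Its interaction was 1.03 ± 0.35 (SE, unadjusted p = 0.00428), and 7 of 8 MS libraries lay under the control median in Tph2+/+ mice while 7 of 8 lay above it in Tph2+/- mice. The other GE1 loci lay in Slit1 (0.90), Slit3 (-0.93), Ephb2 (0.63) and Plxna4 (0.85). Ligands and receptors were both among them.

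For GE2 the Epha8 gene held 2 of the 3 loci, of opposite sign. The locus upstream of the gene, at chr4:136959300-136960229, had 1.31 to 3.75 CPM in C (median 1.93) and 2.04 to 4.01 CPM in MS (median 3.24) of Tph2+/+ mice. In Tph2-/- mice it had 1.64 to 3.92 CPM in C (median 2.54) and 0.209 to 3.23 CPM in MS (median 2.42). Its interaction was -1.02 ± 0.34 (SE, unadjusted p = 0.00326). An intron at chr4:136949613-136950781 had medians of 2.52 and 2.02 CPM in C and MS of Tph2+/+ mice and 2.39 and 3.89 in Tph2-/- mice (0.81 ± 0.28, SE, unadjusted p = 0.00502). Epha3, a receptor of ephrin-A ligands, had the third, a coding exon at chr16:63651836-63652796, with medians of 2.11 CPM in both rearing conditions of Tph2+/+ mice and 2.01 and 3.68 in C and MS of Tph2-/- mice (0.82 ± 0.30, SE, unadjusted p = 0.00752). Of its 6 Tph2-/- MS libraries 5 lay above the highest control. With all 48 libraries none of these 3 passed the limits.

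On gene sums no member passed for GE1, against 0.5% of all genes, or for GE2, against 0.511%. Unadjusted p below 0.05 came from edgeR for 0 genes in GE1 and for 1 in GE2, and DESeq2 also gave 0 and 1. Over all 37004 genes edgeR gave 1141 and 1213. For GE1 the smallest unadjusted p were 0.0922 for Slit1 (0.11 ± 0.06, SE), 0.137 for Efna1 (0.23 ± 0.15) and 0.180 for Plxna4 (0.11 ± 0.08). For GE2 they were 0.0452 for Plxna4 (0.17 ± 0.08, SE), 0.0608 for Slit1 (0.13 ± 0.07) and 0.0686 for Plxna1 (0.25 ± 0.13). In the Plxna4 sum 6 of 8 Tph2+/+ MS libraries lay under the lowest control, with medians of 49.5 CPM in C and 43.3 in MS, while the Tph2-/- medians were 46.4 and 46.6 CPM.

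Other genes of the pathway were counted as 2 lists, 36 further cues and receptors (34 with a locus) and 21 cytoplasmic signalling genes (21 with a locus). None of their gene sums passed the limits in any of the 5 comparisons. For MS 26 of 34 cues and receptors were higher (median log2 difference 0.06) and 6 had an unadjusted p under 0.05. Of the signalling genes 10 of 21 were higher (median -0.01) and 3 had such a p. Over all genes 17.9% had such a p for MS. In Tph2-/- mice 24 of 34 and 15 of 21 were higher, with medians of 0.04 and 0.05, and in Tph2+/- mice 14 of 34 and 13 of 21, with medians of -0.02 and 0.02. The smallest adjusted p over both lists and all comparisons was 0.127 by edgeR.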

How the data were processed

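DNA of 48 amygdala libraries was sheared, enriched with an MBD protein and sequenced in pairs. The authors aligned the reads to GRCm38 with Bowtie2 2.1.0 and deposited raw read counts per locus from DiffBind 2.0.9. Sample groups came from the labels. Loci were placed on genes with the GENCODE annotation of GRCm38, and sequences came from RefSeq (GRCm38.p6). Counts were fitted with edgeR 4.0.16 in R 4.3.3 (TMM, robust quasi-likelihood test, Benjamini-Hochberg adjustment over all loci or genes) on 46 libraries, with group as the factor and no covariate, after tests on simulated data. Gene sums add the loci within 5 kb of a gene. A call needs a log2 fold change over 0.2 in size with an unadjusted p below 0.01. CPM values are scaled by TMM library sizes. In each comparison the 3 loci and 3 genes with the smallest p were described, called loci first. The members and gene lists were chosen with earlier results of these data known. Alternatives were DESeq2 1.42.0, other scalings, filters, library sets and added terms. Depth was 7724481 to 14133801 counts per library, and with 25.6 counts at a typical locus small differences are not detectable. Same-numbered replicates did not vary together.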

Additional observations from a re-analysis of the deposited data

Results flagged for a closer look

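Single libraries stood apart from the rest of their group, by Dixon's ratio of gap to range, in 8 of 144 groups tested over the described loci and genes, where chance gives about 1 in 20. Replicate 2 of the Tph2+/+ MS group had 3.904 CPM at the Sema3f locus (others 1.864 to 2.741). Replicate 1 of the Tph2+/- MS group, sample number 22, had the highest sums of both Ephb2, at 217.7 CPM (others 184.9 to 199.9), and Plxna1, at 28.68 CPM (others 18.44 to 23.16). Replicate 6 of that group had 5.118 CPM at Efnb3 (others 2.851 to 3.695). Replicate 5 of the Tph2+/+ C group had 3.682 CPM at the Ephb2 intron compared between Tph2+/- and Tph2+/+ mice (others 2.285 to 2.759). At the Dcc coding exon replicate 2 of the Tph2-/- C group was low, at 0.7954 CPM (others 1.637 to 2.384), and replicate 5 of the Tph2-/- MS group was high, at 3.058 CPM (others 1.252 to 1.808). Replicate 3 of the Tph2+/+ C group had 3.751 CPM at the locus upstream of Epha8 (others 1.312 to 2.448).

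The 6 loci described for the interactions passed the unadjusted limits of the interaction test, none of them after adjustment by edgeR. They were described for their small p in this same test, so passing it is no further result. The share of member loci that passed is given above beside that of all loci. On the log2 scale the interaction was -1.014 at the Nrp1 intron, 1.029 at the Dcc coding exon and 0.9045 at the Sema3e intron for Tph2+/- against Tph2+/+ mice. For Tph2-/- against Tph2+/+ mice it was -1.024 upstream of Epha8, 0.8102 at the Epha8 intron and 0.8151 at the Epha3 coding exon.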

How the results depend on the processing

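Counts of calls moved by over 1.5 times under these alternatives, and the cause was not tested. For MS the 31 loci became 19 where Tph2-/- MS replicates 2 and 3, not 3 and 7, were dropped, 9 without sample numbers 18 to 26, 13 with a late-control term and 12 with the CpG slope term. For Tph2-/- mice the 7 loci became 4 with a filter on counts under 20, 4 with the other pair dropped and 3 without numbers 18 to 26. For Tph2+/- mice the 4 loci became 2 with total counts, 1 with the filter and 1 without numbers 18 to 26. GE1 went from 7 to 11 loci with total counts, and GE2 from 3 to 5 with DESeq2, without numbers 18 to 26 and with the slope term. On gene sums MS went from 0 to 1 with DESeq2 and with total counts and to 4 with all 48 libraries. The 1 gene of Tph2-/- mice became 0 with total counts, without numbers 18 to 26 and without flanks. Tph2+/- mice went from 0 to 1 with DESeq2, its size factors, all 48 libraries, the other pair dropped, the slope term and no flanks. GE1 went from 0 to 2 with total counts and GE2 from 0 to 1 with the slope term. The 3 loci and 3 genes of smallest p in each comparison kept their direction under these alternatives, with 28 calls lost and 8 gained. Of the 31 loci called for MS 28 kept their sign without numbers 18 to 26, and the sums of Unc5a, Unc5c and Unc5d turned negative there. Replicate numbers do not pair the samples: over 110 same-numbered pairs the deviations correlated with a median r of 0.013, and 11 pairs were over 0.1. With the replicate number as a block, 31 loci were called for MS, 7 for Tph2-/-, 4 for Tph2+/-, 5 for GE1 and 3 for GE2, and 1, 1, 1, 0 and 0 genes. With 25.6 counts at a typical member locus, depth limits the loci more than the sums.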
